A study of Ovis aries with 32 samples.

Results

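The HOXB genes are one of the HOX clusters, a row of homeobox genes on sheep chromosome 11 that code for transcription factors. Members were the rows of the deposited count table with the symbols HOXB1 to HOXB9. Of 9 symbols listed, 8 were rows of the table, which holds 28524 genes, and HOXB4 was not analysed here. Of those 8, HOXB1 had no count in any library, HOXB3 had 22 counts in all, and HOXB2, HOXB5, HOXB6, HOXB7, HOXB8 and HOXB9 had enough for a test.

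HOX proteins give cells of the embryo their position along the axis from head to tail. Within a cluster, the genes at one end are switched on earlier and further forward, and those at the other end later and further back, so a tissue's HOX set is a record of where its precursors arose. Adult fat keeps such a record, and depots are known to differ in their HOX genes.

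The series measured 32 fat libraries from 8 female sheep (Ovis aries), with 4 depots taken from each animal. Controls were sheep 98, 131, 132 and 201. Sheep 48, 185, 233 and 255 were daughters of ewes injected during pregnancy with testosterone propionate (100 mg, or 1.2 mg/kg, in 2 ml corn oil, from day 30 to day 90 of gestation), a sheep model of polycystic ovary syndrome. Both groups were housed together on a maintenance diet, had their ovaries removed as adults and carried steroid implants, with 14 days of progesterone followed by 18 hours of estradiol before tissue was taken. Visceral fat came from the mesentery around the rumen, subcutaneous fat from the sternal region, perirenal fat from around the kidney and epicardial fat from the surface of the heart. Neither the sheep's exact age nor their breed is given in the labels. Each group of depot and treatment held 4 libraries, 1 per sheep.

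Libraries were read from the 3′ end of transcripts, and totals ran from 784135 to 8267824 counts. Levels are CPM, counts scaled to library size, given as mean ± SD with n = 4. In whole tissue, fewer cells of a type and less RNA per cell cannot be told apart. All 7 adipocyte markers were found in every depot, and their summed level was 6946 to 26630 CPM in epicardial fat and 8153 to 53470 CPM in the others. Of 11 cardiac muscle markers 9 were in the table. They summed to between 5.50 and 14130 CPM in epicardial libraries and to at most 32.9 CPM in other depots. The 7 skeletal muscle markers summed to 3.11 to 1233 CPM in epicardial libraries and to at most 18.4 CPM in the others. Of the other marker lists, mesothelium summed to 49.4 to 247.2 CPM outside subcutaneous fat and to at most 10.5 CPM in it. Outside subcutaneous fat most of that sum was a single gene, WT1, at 44.1 to 210.6 CPM. In visceral, subcutaneous and perirenal fat, the kidney list reached at most 14.8 CPM with UMOD, AQP2, CDH16 and SLC34A1 at 0.

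A few libraries stood apart. The visceral library of testosterone sheep 255 and the subcutaneous library of testosterone sheep 48 had ARGLU1, a splicing regulator, at 18440 and 25680 CPM, against at most 4737 CPM in the other 30 libraries. Their adipocyte sums of 8153 and 14970 CPM were the lowest of their groups. The epicardial library of testosterone sheep 255 had HOXC6, a gene of the HOXC cluster, at 95.5 CPM, against at most 2.17 CPM in the other 7 epicardial libraries. Results that turn on these libraries are given with and without them, together with the perirenal library of control sheep 98, which an earlier account of these data set apart.

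In control sheep the 6 tested members were low in epicardial fat and present in visceral, subcutaneous and perirenal fat. HOXB5 had its highest mean in visceral fat and a single count over the 4 epicardial libraries, HOXB6 and HOXB8 were highest in subcutaneous fat, and HOXB2 was likewise highest on average in visceral fat. A difference was called at a false discovery rate under 0.05 over all genes tested, from edgeR's quasi-likelihood test with the sheep as a block. HOXB5 to HOXB9 were too low in epicardial fat to be tested within it and entered these fits through the depots where they are high, which favours that direction, so the counts against epicardial fat are descriptions. All 6 were higher in visceral than in epicardial fat, where 21.9% of 13369 genes were called in either direction and 11% were higher in visceral fat. All 6 were also higher in subcutaneous and in perirenal than in epicardial fat, against 23.3% and 25.3% of genes called in either direction, and 11% and 12.5% called in that direction.

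**Figure D1:**
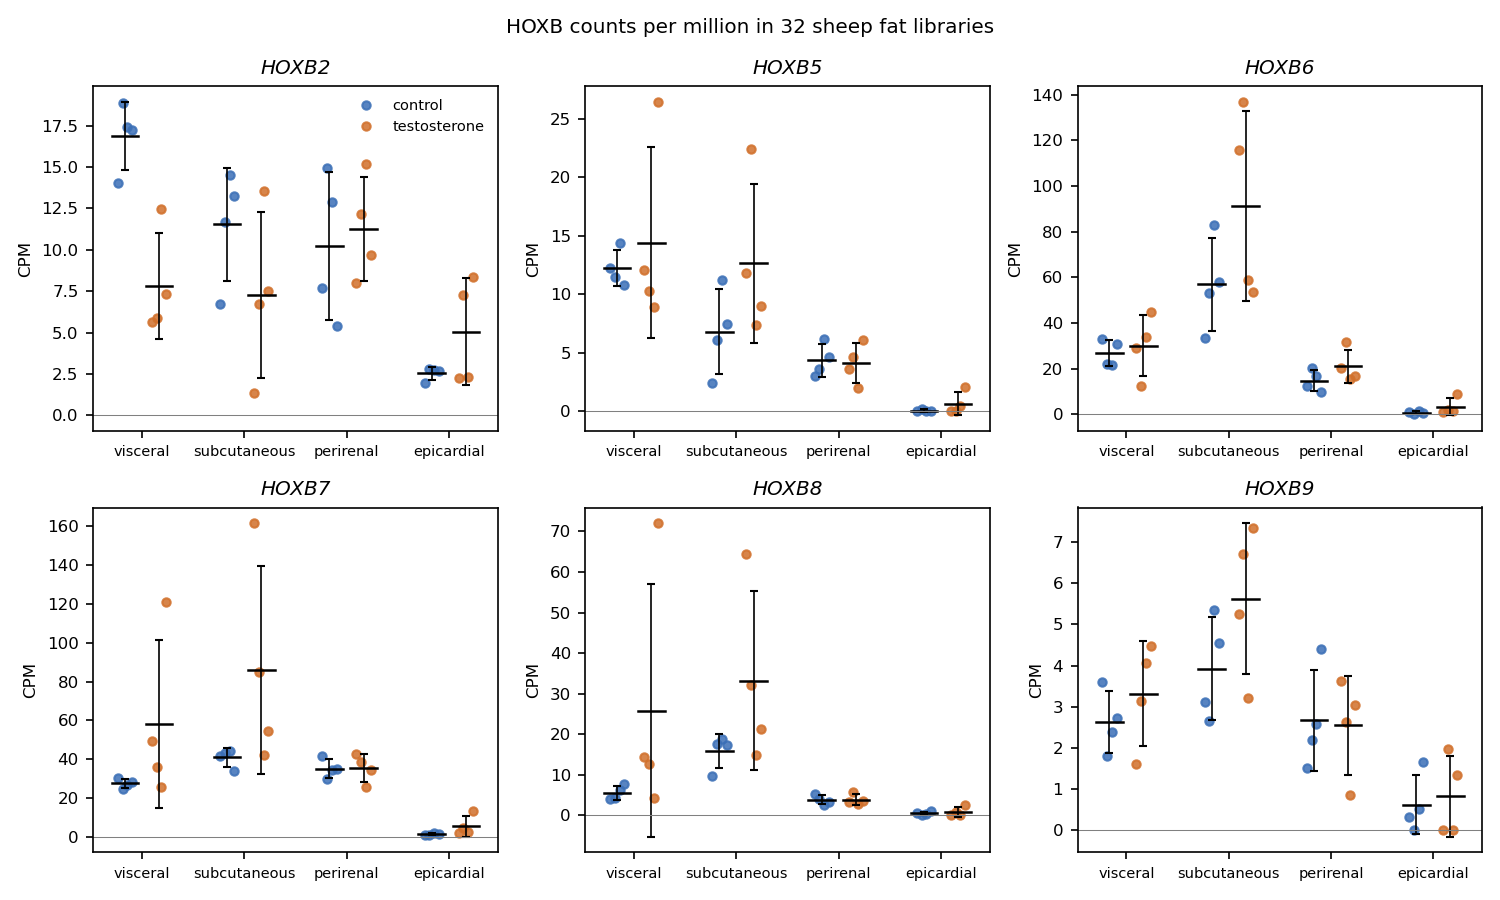
CPM (vertical axis, linear, a separate scale for each gene) of the 6 tested HOXB genes in all 32 libraries by depot. Points are libraries, lines are means and bars are ± SD (n = 4). Epicardial libraries lie near 0 in both treatments for HOXB5, HOXB6, HOXB7 and HOXB8. For HOXB9 they reach 1.97 CPM and overlap the perirenal libraries in both treatments. Single testosterone libraries reach 161.6 CPM for HOXB7 and 72.0 CPM for HOXB8.

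HOXB1 and HOXB2 lie at the end of the cluster that is used furthest forward, and in mouse both pattern the hindbrain. HOXB1 had 0 counts in every depot, which allows at most 0.167 CPM over the control libraries of subcutaneous fat, the least deeply read of the control depots, and 0.210 CPM over the epicardial libraries of testosterone sheep. HOXB2 was present in all 32 libraries. In control visceral fat it was at 14.0, 18.9, 17.4 and 17.3 CPM in sheep 98, 131, 132 and 201, and in epicardial fat at 1.94, 2.79, 2.76 and 2.67 CPM. The depots did not overlap, and HOXB2 was higher in visceral fat by 2.73 log2 units (SE 0.28, edgeR adjusted p = 5.94e-06). For pairs of depots, the share of all genes whose libraries did not overlap is not given here, so statements on overlap are descriptions. Subcutaneous fat averaged 11.5 ± 3.43 CPM and perirenal fat 10.2 ± 4.45 CPM, and visceral fat was above them by 0.55 (interval 0.06 to 1.05) and 0.77 (interval 0.28 to 1.26) on the log2 scale. Neither difference passed the correction (edgeR adjusted p = 0.126 and 0.170, with 0.0313 and 0.00418 before adjustment).

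HOXB3, whose mouse counterpart acts in the hindbrain and in glands of the neck, had 22 counts in 12 libraries and never more than 4 in one. No test was made of it. In control sheep it had 7 counts in perirenal fat, 3 in visceral, 1 in epicardial and 0 in subcutaneous fat, and the perirenal to visceral ratio was 2.41 with a 95% counting interval of 0.550 to 14.4. That interval covers counting error only and includes equal levels.

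HOXB5, which acts in neural crest and in vessel-forming cells, was led by visceral fat. It was at 12.2, 11.5, 14.4 and 10.8 CPM in visceral fat of control sheep 98, 131, 132 and 201. It was at 3.01, 3.59, 6.18 and 4.60 CPM in perirenal fat of the same sheep, and every visceral library was higher than every perirenal library. This difference was 1.56 on the log2 scale (SE 0.30, edgeR adjusted p = 0.0171), and HOXB5 was the 1 member called between these depots, where 0.613% of all genes were called. That call was lost without the perirenal library of sheep 98 (adjusted p = 0.0766 at a log2 fold change of 1.53), without sheep 98, 131 or 201 in turn (adjusted p = 0.0619, 0.174 and 0.0752) and with no sheep block (adjusted p = 0.11).

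Subcutaneous HOXB5 was intermediate at 6.78 ± 3.62 CPM in control sheep, lower than visceral (log2 fold change 0.93, SE 0.30, adjusted p = 0.0447) and with no call against perirenal fat (adjusted p = 0.153). The visceral to subcutaneous call did not hold without any one of the 4 control sheep (adjusted p from 0.0688 to 0.220). In control epicardial fat only 1 HOXB5 count was found, in sheep 131. Pooled over the 4 libraries, visceral fat was 236 times higher, with a counting interval of 42.1 to 9351. The ratio was 132 (23.3 to 5270) for subcutaneous and 84.4 (14.9 to 3363) for perirenal fat.

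HOXB6, a gene of the lateral mesoderm and limb bud in mouse, was led by subcutaneous fat. Control sheep 98, 131, 132 and 201 had 33.3, 53.4, 83.0 and 58.0 CPM there, 33.0, 22.0, 21.8 and 30.7 CPM in visceral fat and 12.3, 20.1, 16.8 and 9.996 CPM in perirenal fat. All subcutaneous libraries were above all visceral ones, though sheep 98 differed between them by under 1 CPM. The difference of subcutaneous over perirenal fat was 1.94 on the log2 scale (SE 0.32, adjusted p = 8.65e-04), and of visceral minus subcutaneous fat it was -1.04 (SE 0.31, adjusted p = 0.0380). Visceral and perirenal fat did not pass (0.90, SE 0.32, adjusted p = 0.255). Their libraries did not overlap, which is a description only. The call between visceral and subcutaneous fat was lost without sheep 131, 132 or 201 (adjusted p = 0.0675, 0.201 and 0.112) and with no filter on low counts (adjusted p = 0.0779). In epicardial fat HOXB6 was at 0.742 ± 0.585 CPM.

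HOXB7, a gene active in the ureteric bud of mouse and in mesenchymal stem cells, differed little among the depots other than epicardial fat. Control sheep 98, 131, 132 and 201 had 30.4, 24.5, 26.8 and 28.4 CPM in visceral fat, 41.7, 43.3, 44.4 and 34.0 CPM in subcutaneous fat and 41.6, 29.6, 34.1 and 35.0 CPM in perirenal fat. Visceral fat was lower than subcutaneous fat (log2 fold change -0.59, SE 0.16, adjusted p = 0.0197), with no overlap, a call lost without sheep 131 or 132 (adjusted p = 0.136 and 0.109). The epicardial libraries held 0.969, 0.931, 1.73 and 1.64 CPM. The epicardial difference had the smallest adjusted p among the members, with log2 fold changes of 4.30, 4.89 and 4.64 for visceral, subcutaneous and perirenal fat (SE 0.22 each).

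HOXB8, used in mouse by myeloid progenitors and in the trunk, was higher in subcutaneous fat than in any other depot of control sheep. It was at 9.82, 17.5, 18.8 and 17.5 CPM in subcutaneous fat of sheep 98, 131, 132 and 201, and at 4.03, 4.27, 6.39 and 7.69 CPM in visceral fat. No subcutaneous library fell within the visceral or perirenal range. Perirenal fat averaged 3.86 ± 1.09 CPM and epicardial fat 0.551 ± 0.370 CPM. On the log2 scale the difference was 2.03 (SE 0.32, adjusted p = 3.85e-04) for subcutaneous over perirenal fat and -1.53 (SE 0.30, adjusted p = 0.00335) for visceral minus subcutaneous fat.

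HOXB9, which in mouse shapes the thoracic ribs together with its paralogues, was at 2.64 ± 0.753, 3.92 ± 1.25 and 2.67 ± 1.238 CPM in visceral, subcutaneous and perirenal fat of control sheep. None of those 3 pairs passed (adjusted p from 0.314 to 0.964). The interval of the visceral to perirenal difference, -0.82 to 0.95 on the log2 scale, leaves room for a change of nearly 1 log2 unit either way. Epicardial fat was lower, at 0.621 ± 0.714 CPM, with log2 fold changes of 2.08 to 2.68. The perirenal and epicardial libraries of HOXB9 overlapped, though perirenal fat was higher in 4 of 4 sheep. Its visceral call was lost without sheep 98 (adjusted p = 0.0515) and its perirenal call without sheep 131 (adjusted p = 0.0575).

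Across the pairs without epicardial fat, 4 of 6 tested members were called between visceral and subcutaneous fat (13.8% of all genes), 1 of 6 between visceral and perirenal fat (0.613%) and 2 of 6 between subcutaneous and perirenal fat (23.7%). In the last pair the members' share is near the background. Without sheep 131, or without sheep 132, 1 call remained between visceral and subcutaneous fat, that of HOXB8.

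**Figure D2:**
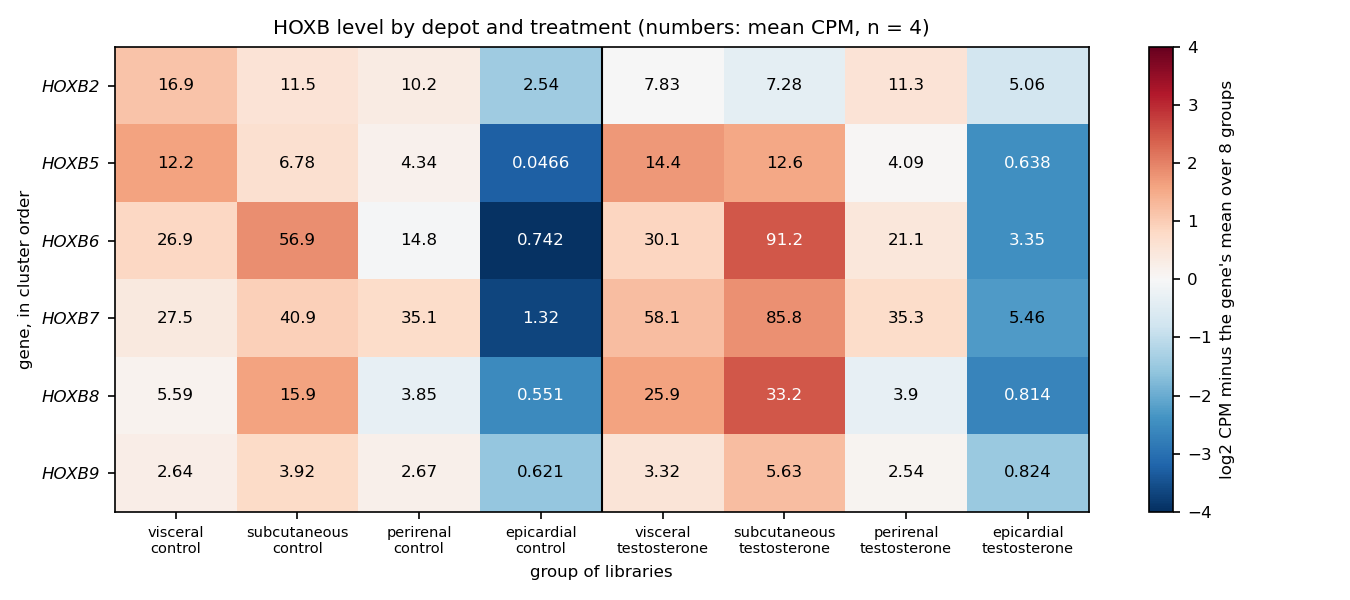
Colour gives the log2 CPM of each tested HOXB gene minus that gene's own mean over the 8 groups of depot and treatment, with genes ordered as they lie in the cluster. Printed numbers are mean CPM (n = 4). Epicardial columns are the lowest for every gene in both treatments, and in control sheep the highest column is visceral fat for HOXB2 and HOXB5 and subcutaneous fat for HOXB6 to HOXB9.

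Heart muscle content differed among the epicardial libraries, and HOXB values are set beside it here. In the epicardial library of control sheep 132, the cardiac list summed to 6.56 CPM and the adipocyte list to 17890 CPM. In that library HOXB5 was at 0 CPM, HOXB6 at 1.38, HOXB7 at 1.73 and HOXB8 at 0.345 CPM. In the epicardial library of control sheep 98, where the cardiac list summed to 13060 CPM, HOXB6 and HOXB7 were both at 0.969 CPM. The testosterone library with the lowest cardiac sum, that of sheep 255 at 5.50 CPM, had the highest HOXB6, HOXB7 and HOXB8 of all 8 epicardial libraries, at 8.92, 13.5 and 2.47 CPM. The adipocyte sum was lower in all 4 control epicardial libraries (6946 to 19130 CPM) than in any other control library (27070 to 53470 CPM), and its part in the difference, like that of heart muscle, was not tested.

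HOXB2 made up a larger share of the HOXB counts in epicardial fat, 46.1% ± 14.95 in control sheep, than in visceral (18.6% ± 3.50), subcutaneous (8.41% ± 1.22) or perirenal fat (14.1% ± 5.37). Conversely, HOXB5 made up 13.4% ± 2.16 in visceral and 1.14% ± 2.27 in epicardial fat. These shares are descriptions. They rest on 15 to 39 HOXB counts in each control epicardial library, against 314 to 794 in the control libraries of the other depots. The summed HOXB level was 135.9 ± 32.8 CPM in subcutaneous fat, followed by visceral fat at 91.9 ± 7.06, perirenal fat at 71.3 ± 5.67 and epicardial fat at 5.87 ± 1.56 CPM.

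The same depot comparisons were made in the testosterone sheep, a separate set of animals. Of 13411 genes tested, few were called in any pair, and the members' calls were fewer as well. Against epicardial fat, 4 members were higher in visceral fat, where 1.66% of genes were called and 0.723% called higher. The members higher were 5 in subcutaneous fat (4.5% and 1.89%) and 2 in perirenal fat (1.82% and 0.649%). Between subcutaneous and perirenal fat 2 were called (2.23%), HOXB6 at a log2 fold change of 2.13 (SE 0.50, adjusted p = 0.0440) and HOXB8 at 2.996 (SE 0.64, adjusted p = 0.0261). Visceral against subcutaneous and visceral against perirenal fat gave 0 member calls by edgeR (0.664% and 0.082% of genes). DESeq2 called 0 and 1, the latter being HOXB5 (DESeq2 adjusted p = 0.039). Between visceral and perirenal fat DESeq2 called 137 genes in all, against 11 by edgeR. At an unadjusted edgeR p under 0.05 these 2 pairs held 1 and 2 members of 6, against 11.1% and 12.1% of all genes. For visceral minus perirenal fat, the log2 fold change of HOXB5 was 1.82 (SE 0.49, edgeR adjusted p = 0.245), against 1.56 in control sheep. Visceral HOXB5 was higher in 4 of 4 testosterone sheep, and the libraries did not overlap, which is a description.

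HOXB6 and HOXB7 were called against epicardial fat from all 3 other depots of these sheep. HOXB6 was higher in visceral fat by 3.07 (SE 0.59, adjusted p = 0.0171), in subcutaneous fat by 4.68 (SE 0.62, adjusted p = 0.00128) and in perirenal fat by 2.54 (SE 0.59, adjusted p = 0.0451). HOXB7 was higher in visceral fat by 3.27 (SE 0.51, adjusted p = 0.00770), in subcutaneous fat by 3.98 (SE 0.53, adjusted p = 0.00128) and in perirenal fat by 2.76 (SE 0.51, adjusted p = 0.0168). HOXB5 was called for visceral and subcutaneous fat, at 4.35 (SE 0.66) and 4.27 (SE 0.68). These calls depended on single sheep. Over the 6 pairs of depots the 13 member calls fell to 5, 5 and 4 without sheep 48, 185 and 233, and rose to 18 without sheep 255. The share of all genes called in those fits is not given here. HOXB2 was not called in any pair, and its difference from epicardial fat was 0.50 (SE 0.41) for visceral, 0.42 (SE 0.42) for subcutaneous and 1.02 (SE 0.40) for perirenal fat.

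The epicardial library of sheep 255 was the highest of the testosterone group for HOXB2, HOXB5, HOXB6, HOXB7 and HOXB8. There HOXB5 was at 2.09 CPM, HOXB6 at 8.92 and HOXB7 at 13.5 CPM, against at most 0.464, 1.97 and 4.33 CPM in the other 3 testosterone libraries. Its cardiac list summed to 5.50 CPM. Without the libraries that stood apart, members called between perirenal and epicardial fat rose from 2 to 5, while all genes called rose from 244 to 2622. HOXB5 in that pair went from 2.53 (adjusted p = 0.0729) to 4.92 (adjusted p = 0.00451).

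**Figure D3:**
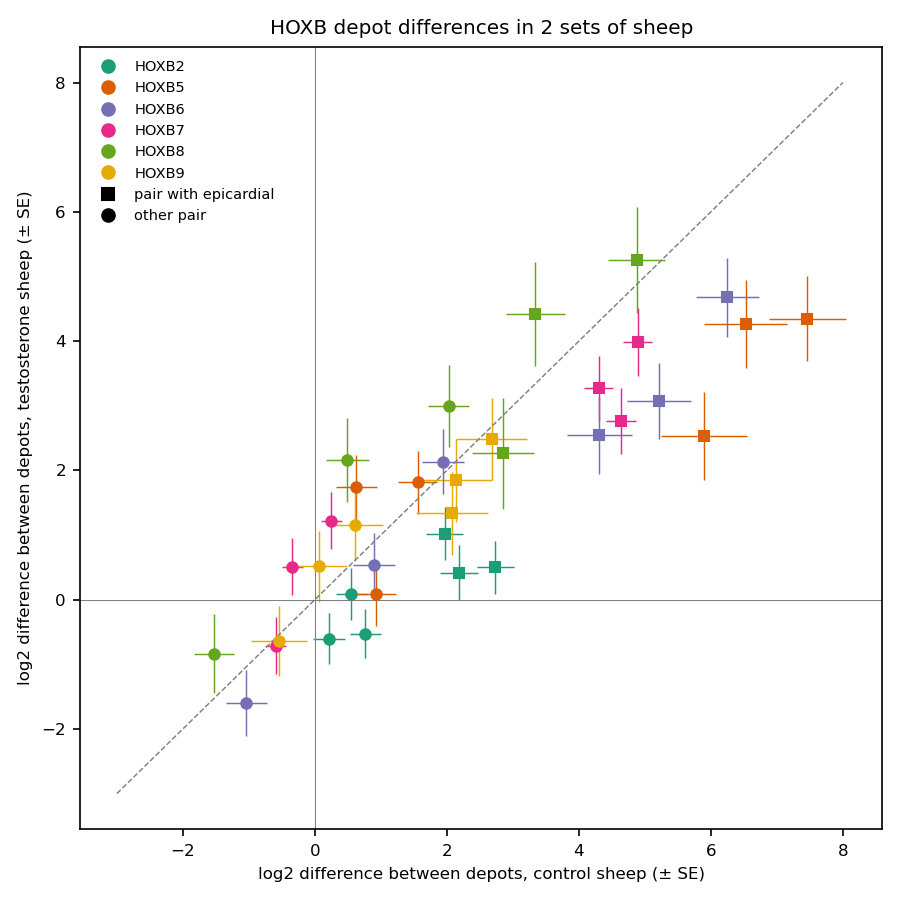
Each point is 1 tested HOXB gene in 1 pair of depots, with its log2 difference (first depot minus second) in control sheep on the horizontal axis and in testosterone sheep on the vertical axis. Bars are ± SE and the dashed line marks equal values. Most squares, which are pairs with epicardial fat, lie below the line, among them HOXB5 at 7.46 in control and 4.35 in testosterone sheep for visceral minus epicardial fat, while the HOXB8 points mostly lie above it.

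Testosterone and control sheep were next compared within each depot. In no depot was a HOXB gene called by edgeR or by DESeq2, and 0% of all genes were called by edgeR. Unadjusted p-values were under 0.05 for 3 of 6 members in visceral fat, where 9.42% of all genes tested were, and for 2 of 6 in subcutaneous fat (5.11%). They were under 0.05 for 0 of 6 in perirenal fat (5.37%) and for HOXB2, the 1 member tested, in epicardial fat (5.64%). The 95% intervals were wide, so changes of about 1 log2 unit remain possible for most members.

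HOXB2 had lower values in visceral fat of testosterone sheep. Sheep 48, 185, 233 and 255 had 5.62, 5.88, 12.5 and 7.32 CPM, all below the lowest control value of 14.0 CPM. Of 12860 genes tested in visceral fat, 3.02% had every control library above every testosterone library. On the log2 scale HOXB2 changed by -1.08 (SE 0.29, interval -1.73 to -0.43), and it did not pass the correction (edgeR adjusted p = 0.521, with 0.00381 before adjustment). It was -1.09 without sheep 255. The adipocyte marker sum was also lower in all 4 of these testosterone libraries (8153 to 30500 CPM) than in any control visceral library (32140 to 53470 CPM), and its part in the difference was not tested. In perirenal fat, by contrast, HOXB2 was at 8.00, 12.2, 15.2 and 9.69 CPM against 5.40 to 14.97 CPM in controls, a log2 fold change of 0.13 (interval -0.61 to 0.87).

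In epicardial fat HOXB2 was at 2.28, 7.28, 2.32 and 8.35 CPM in sheep 48, 185, 233 and 255. The lower pair lay within the control range of 1.94 to 2.79 CPM and the other pair above it. The log2 fold change was 1.09 (SE 0.44, adjusted p = 0.856), and 0.78 without sheep 255. The lower pair were the libraries with larger cardiac sums, 14130 CPM in sheep 48 and 2148 CPM in sheep 233, against 250.8 CPM in sheep 185 and 5.50 CPM in sheep 255. The part of heart tissue in this difference was not tested.

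HOXB7 and HOXB8 had higher means in visceral and subcutaneous fat of testosterone sheep, raised most by a single library in each depot. In visceral fat HOXB8 was at 14.5, 12.8, 4.21 and 72.0 CPM in sheep 48, 185, 233 and 255, against 4.03 to 7.69 CPM in controls. Sheep 48, 185 and 255 exceeded the controls and sheep 233 did not. The log2 fold change of 2.24 (SE 0.75, adjusted p = 0.521) became 0.89 (adjusted p = 0.726) without sheep 255, the library with high ARGLU1. Visceral HOXB7 was at 49.6, 36.0, 25.6 and 121.2 CPM, and its log2 fold change of 1.13 (adjusted p = 0.521) became 0.41 (adjusted p = 0.792) without that library.

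Subcutaneous fat showed the same arrangement around sheep 48. HOXB7 was at 161.6, 84.8, 42.1 and 54.7 CPM in sheep 48, 185, 233 and 255, against 34.0 to 44.4 CPM in controls. Only sheep 233 fell within the control range. The log2 fold change was 1.07 (SE 0.38, adjusted p = 0.927), and 0.58 (adjusted p = 0.934) without sheep 48, whose library had the lowest depth of all, 784135 counts. HOXB8 was at 64.4, 32.2, 14.8 and 21.3 CPM, and its log2 fold change of 0.99 became 0.52 without sheep 48. In the same library HOXB2 was at 1.31 CPM, from 1 count.

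HOXB5, HOXB6 and HOXB9 gave smaller values. Subcutaneous HOXB5 and HOXB6 had log2 fold changes of 0.90 (interval -0.14 to 1.94) and 0.70 (interval -0.10 to 1.49). Visceral HOXB5, HOXB6 and HOXB9 lay between 0.19 and 0.33. In perirenal fat the members ran from -0.10 for HOXB5 to 0.50 (interval -0.14 to 1.13) for HOXB6. Perirenal HOXB7 averaged 35.1 ± 4.94 CPM in control and 35.3 ± 7.22 CPM in testosterone sheep, a log2 fold change of 0.00 with an interval of -0.41 to 0.41.

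**Figure D4:**
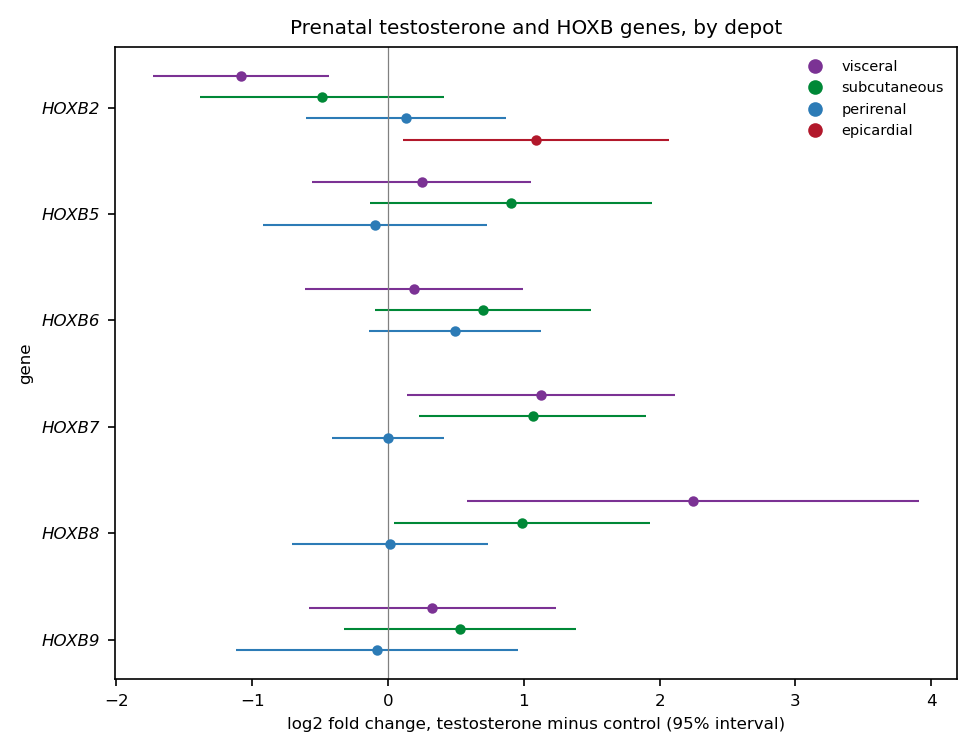
Log2 fold change of testosterone minus control sheep (horizontal axis) with its 95% interval for each tested HOXB gene and depot, 4 libraries against 4. Epicardial fat has a point for HOXB2 alone because the other members were too low to test. Before correction, intervals exclude 0 for visceral HOXB2 (-1.73 to -0.43), HOXB7 (0.14 to 2.12) and HOXB8 (0.58 to 3.91), subcutaneous HOXB7 (0.23 to 1.90) and HOXB8 (0.05 to 1.93) and epicardial HOXB2 (0.11 to 2.07), and no value passed the correction.

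Whether the testosterone difference itself varied among depots was tested jointly over the 3 depot by treatment terms, with all 32 libraries and the sheep as a block. No HOXB gene was called (0.00703% of 14225 genes). HOXB2 had the smallest p among the members (6.79e-04, adjusted p = 0.930), with HOXB7 at 0.0293 and HOXB5 at 0.0373 before adjustment. For HOXB2 the testosterone difference was 1.27 log2 units higher in perirenal and 2.25 higher in epicardial than in visceral fat. Visceral HOXB2 exceeded perirenal HOXB2 in 4 of 4 control sheep and in 0 of 4 testosterone sheep. Without the libraries that stood apart the HOXB2 p was 0.00383 (adjusted p = 0.502).

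HOX clusters descend from 1 ancestral cluster, so genes with the same number in different clusters are paralogues, with closely related proteins. Between visceral and perirenal fat, members and paralogues gave different values. Of 17 tested genes of the HOXA, HOXC and HOXD clusters, 10 were lower and 1, HOXA3, was higher in visceral than in perirenal fat of control sheep, with a median log2 fold change of -1.67. The 6 HOXB genes had a median of 0.63 and 0 lower calls, and all genes had a median of 0.02.

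HOXB9 gave the widest gap. In control sheep HOXA9 averaged 0.101 ± 0.128 CPM in visceral and 43.7 ± 9.04 CPM in perirenal fat, and HOXC9 averaged 6.02 ± 2.98 and 103.4 ± 21.0 CPM. HOXB9 averaged 2.64 and 2.67 CPM in the same libraries. Over all 8 sheep, the visceral minus perirenal difference in log2 CPM was 0.21 for HOXB9, -5.81 for HOXA9, -3.86 for HOXC9 and -1.46 for HOXD9.

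The difference of member and paralogue was tested within sheep by an exact two-sided sign-flip permutation test, for 10 pairs, a test chosen after these values were seen and run for this pair of depots alone. With 8 sheep the smallest possible p is 0.007812. HOXB9 was higher relative to each of HOXA9, HOXC9 and HOXD9 in 8 of 8 sheep (differences 6.02, 4.07 and 1.67, exact permutation p = 0.007812 each, adjusted over the 10 pairs p = 0.0112). The visceral minus perirenal difference of HOXB8 exceeded that of HOXC8 by 3.42 and that of HOXD8 by 3.598 in 8 of 8 sheep, with the same p-values. By the same measure HOXB6 exceeded HOXA6 by 2.23 in 8 of 8 sheep and HOXC6 by 1.84 in 7 of 8 (adjusted p = 0.0195, and 0.0781 without sheep 98 and 255). HOXB5 exceeded HOXC5 by 1.53 in 8 of 8, also by this measure. These values compare differences between depots and not levels.

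The remaining pairs had larger permutation p-values. HOXB7 exceeded HOXA7 in its depot difference by 0.65 (7 of 8 sheep, exact permutation p = 0.0234, adjusted p = 0.0260), and by 0.30 (adjusted p = 0.0521) without sheep 255. Its adjusted p was also 0.0521 without sheep 48, 98, 131 or 233. HOXB2 was lower than HOXA2 by this measure (-0.80, 2 of 8 sheep above 0, exact permutation p = 0.0859), with a mean of 0.15 in control and -1.74 in testosterone sheep. Against epicardial fat the clusters went the same way, since 13 of 17 HOXA, HOXC and HOXD genes were higher in visceral, 14 in subcutaneous and 15 in perirenal fat of control sheep, with 0 lower, and the limit given for HOXB5 to HOXB9 touches these counts too.

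**Figure D5:**
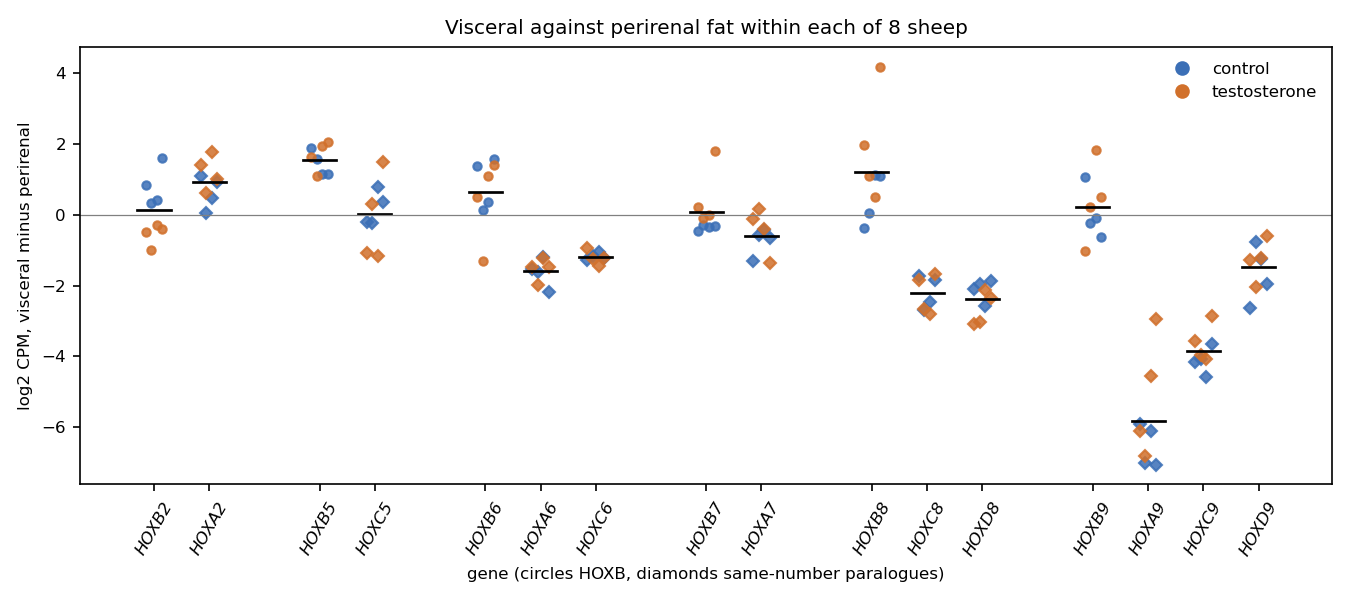
Log2 CPM in visceral minus perirenal fat of the same sheep (vertical axis) for the 6 HOXB genes (circles) and their tested same-number paralogues (diamonds). Each point is 1 of 8 sheep and bars are means. HOXB9 averages 0.21, with points from -1.015 to 1.837, while HOXA9 averages -5.81 and HOXC9 averages -3.86. The highest HOXB8 point is testosterone sheep 255.

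HOX proteins bind DNA together with PBX, MEIS and PKNOX cofactors, and retinoic acid, made by ALDH1A enzymes and sensed by RAR and RXR receptors, switches on HOX genes in the embryo. Of 8 cofactor genes tested in control sheep, 3 were higher in visceral than in subcutaneous fat, led by MEIS2 (log2 fold change 1.40, SE 0.15) and MEIS1 (0.96, SE 0.21). Against epicardial fat, visceral fat had 2 cofactors higher and 2 lower, with MEIS1 at 1.67 (SE 0.22) and PKNOX2 at -0.79 (SE 0.23). Called cofactors thus went both ways against epicardial fat. Of all genes, 13.8% were called between visceral and subcutaneous fat and 21.9% between visceral and epicardial fat.

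Of 12 retinoic acid and HOXB regulators tested, 3 were higher and 2 lower in visceral than in epicardial fat of control sheep. ALDH1A3 was at 2.51 (SE 0.34) and ALDH1A1 at 1.48 (SE 0.17), while the receptor gene RARG was at -1.77 (SE 0.39). ALDH1A1 was also the 1 gene of this list called between visceral and perirenal fat, at 1.237 (SE 0.17, adjusted p = 6.73e-04). In that pair 0.613% of all genes were called. HOXB5 was the called member there, and a link between ALDH1A1 and HOXB5 was not tested. Of 20 Polycomb and trithorax genes, which keep HOX genes silent or active, 2 were higher and 4 lower in visceral than in epicardial fat, with CBX6 at -0.96 (SE 0.20). These counts stand beside the 21.9% of all genes called in that pair, and the Polycomb and trithorax share lies near it. No gene of these lists was called for testosterone within any depot.

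By RefSeq's gene table for the ARS-UI_Ramb_v3.0 assembly, which may not be the build the authors used, CALCOCO2 and SKAP1 flank the cluster. Both were expressed in epicardial fat of control sheep, at 165.9 ± 29.2 and 9.52 ± 2.38 CPM. TTLL6, between CALCOCO2 and the cluster, was at 0.449 ± 0.165 CPM in those libraries, and ATP5MC1, beyond CALCOCO2, had 0 counts in them. HOXB13, further along beyond HOXB9, had 0 counts. The table places HOXB9, HOXB8 and HOXB7 as overlapping one another, and the strand setting of the counting is not given, so reads could be shared among them or lost.

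The same table places a long noncoding RNA, LOC105608416, across HOXB3 and HOXB2, and it was singled out after its values were seen. It had 2409 counts in all. In epicardial fat it was at 9.05, 6.70, 4.49 and 8.83 CPM in control sheep 98, 131, 132 and 201 and at 22.2, 19.9, 14.4 and 15.2 CPM in testosterone sheep 48, 185, 233 and 255. Every testosterone library was above every control library, as for 1.66% of 12793 genes in that depot, a log2 change of 1.35 (SE 0.29, edgeR adjusted p = 0.696, with 6.88e-04 before adjustment).

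LOC105608416 was 12.7 ± 1.35 CPM in control and 28.4 ± 16.8 CPM in testosterone visceral fat, with the libraries again apart (2.6% of genes). Without the high-ARGLU1 library of sheep 255, which held 52.5 CPM, the testosterone mean was 20.3 ± 6.02 CPM (n = 3) and the log2 fold change went from 1.19 to 0.66. Perirenal fat had 8.86 ± 0.558 against 11.8 ± 2.06 CPM, with no overlap (1.31% of genes). In subcutaneous fat, at 13.9 ± 6.55 and 31.6 ± 18.1 CPM, the groups overlapped, and the testosterone mean was 23.3 ± 8.83 CPM (n = 3) without sheep 48, which held 56.5 CPM. None of these passed the correction (adjusted p = 0.521, 0.960 and 0.927 with all libraries). In epicardial fat the log2 fold change was 1.44 (adjusted p = 0.261) without sheep 255. In visceral fat this RNA had higher values in testosterone sheep and HOXB2 lower ones, and whether reads of one were counted for the other was not tested.

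Genes with a profile like that of each member were sought among 14219 others by the root mean square difference of log2 CPM, each gene centred on its own mean, over the 8 groups. EMX2, a homeobox gene of the forebrain and urogenital tract, and GPNMB, a membrane glycoprotein of macrophages, were among the 3 nearest genes for HOXB5, HOXB6, HOXB7 and HOXB8, at differences of 0.448 to 0.684. EMX2 averaged 26.2, 38.1, 13.2 and 2.16 CPM in visceral, subcutaneous, perirenal and epicardial fat of control sheep.

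HOXA7 was among the nearest for HOXB6 and HOXB7, at 0.846 and 0.605, LEPR for HOXB8 at 0.784 and FBXO2 for HOXB5 at 0.695. HOXB2 stood nearest to the endothelin receptor gene EDNRB (0.245), PICALM (0.278) and ASPN (0.283). HOXB9 stood nearest to ANGPTL1 (0.238), GPR176 (0.239) and HOXC4 (0.239). Among the members themselves, HOXB6 and HOXB7 were the closest pair (0.538) and HOXB2 and HOXB6 the furthest apart (1.59).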

How the data were processed

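The values analysed are the raw gene counts of 32 libraries as deposited, which the authors had not normalized. Per the labels' protocols, RNA of integrity 7 or more was made into QuantSeq 3′ libraries, which read transcript ends, so no length correction was applied. The tools named by the submitters' processing notes are Trimmomatic 0.36, FastQC 0.11.5 with MultiQC 0.9, the aligner STAR, the counter featureCounts 1.6.1, and DESeq2 1.24.0 under R 3.6.3. The sources used here do not give a genome build, annotation or strand setting.

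edgeR 4.0.16 under R 4.3.3 gave CPM and tests: TMM scaling (factors 0.862 to 1.14), filterByExpr with a minimum count of 10, a robust quasi-likelihood fit and Benjamini-Hochberg adjustment over all genes tested. Intervals are 95%. Log2 CPM used a prior count of 2, and a count of 0 was bounded by 3 counts. The intervals of pooled count ratios and the bounds cover counting error only. Intervals of log2 fold changes come from the edgeR fit and also take in variation between libraries. The procedure was tested on simulated data. Depot contrasts and the interaction used the sheep as a block, because the 4 depots came from the same animals. Deviations of same-sheep libraries correlated at over 0.1 in 41 of 48 cases (mean 0.230). Treatment contrasts used the 8 libraries of a depot. No 2 libraries of a group were identical. DESeq2 1.42.0, other scaling, no filter and left-out sheep or libraries were alternatives.

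The members, gene lists and tests were chosen with earlier results of these data known. Named were all members, the 3 genes nearest each tested member, and up to 4 called genes per list with the largest change. The paralogue test and LOC105608416 were added after values were seen.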

Additional observations from a re-analysis of the deposited data

Results flagged for a closer look

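Chance sets apart about 1 in 20 groups of 4 independent, normally distributed values by the gap measure used here. Of the 48 groups tested, 6 genes in 8 groups each, 5 held such a library. The 6 genes share libraries and some values are 0, so that rate is only a rough guide here. In visceral fat of testosterone sheep 255, HOXB8 was at 72.0 CPM, far above the 4.21 to 14.5 CPM of the other 3. HOXB6 was at 8.92 CPM in the epicardial library of the same animal, against 1.14 to 1.97 CPM. HOXB8 was at 9.82 CPM in the subcutaneous library of control sheep 98, below the 17.5 to 18.8 CPM of the others. HOXB2 was at 1.94 CPM in the epicardial library of control sheep 98, below 2.67 to 2.79 CPM. That value rests on 6 counts, in a library where 1 count is 0.323 CPM, so counting error is large. HOXB5 was at 0.186 CPM, a single count, in the epicardial library of control sheep 131, with 0 in the other 3, and since any single count among zeros gives the largest possible gap, that group says nothing beside the chance rate.

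HOXB2 went in opposite directions in the 2 sets of sheep when visceral was set against perirenal fat. The visceral minus perirenal difference averaged 6.67 CPM in control sheep, positive in 4 of 4, and -3.44 CPM in testosterone sheep, negative in 4 of 4, so the means differed by -10.11 CPM. That difference between the sets was not tested for this pair of depots alone. The joint test over all depots gave HOXB2 an adjusted p of 0.930.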

How the results depend on the processing

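No result reversed after being called, and a change of sign between values that were never called was not counted. In control sheep, member calls between visceral and perirenal fat went from 1 to 0 with no replicate block and without the libraries that stood apart. All genes called there went from 82 to 31 and 44. In testosterone sheep, calls between visceral and perirenal fat went from 0 to 1 with DESeq2, and all genes called from 11 to 137. Calls between subcutaneous and perirenal fat went from 2 to 0 with no filter, 1 with no replicate block and 4 without the libraries that stood apart. All genes called there went from 299 to 279, 176 and 517. Calls between perirenal and epicardial fat went from 2 to 4, 1 and 5 with DESeq2, with no replicate block and without those libraries. All genes called in that pair went from 244 to 1178, 156 and 2622. The causes were not tested.

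Leaving out 1 sheep at a time, control calls ran from 1 to 3 between visceral and subcutaneous fat (4 with all sheep), 0 to 1 between visceral and perirenal fat, and 5 to 6 for visceral and for perirenal against epicardial fat. They stayed at 2 between subcutaneous and perirenal and at 6 between subcutaneous and epicardial fat, and the total over 6 pairs ran from 20 to 22 (25 with all sheep). In testosterone sheep they ran from 0 to 2 (visceral and subcutaneous), 0 to 4 (visceral and epicardial, subcutaneous and perirenal, and perirenal and epicardial) and were 0 in every such fit between visceral and perirenal fat (0 with all sheep) and 4 in every such fit between subcutaneous and epicardial fat (5 with all sheep). Their total ran from 4, without sheep 233, to 18 (13 with all sheep). How many of all genes were called in these left-out fits is not given here. Testosterone calls within depots and interaction calls stayed at 0 under every alternative run, and the lowest adjusted p of HOXB2 in the interaction was 0.0534, by DESeq2.

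For single members in single pairs, 206 of 225 alternatives of control calls and 84 of 117 of testosterone calls kept the call. None of 48 mean levels moved by over 1 SD with unscaled library sizes. Of the paralogue comparisons, whose alternatives were chosen after seeing the data, 7 of 100 lost the call and 1 gained it. The values of LOC105608416 without single libraries were likewise added after seeing the data. Depth limits HOXB3 and all epicardial values, where 9 to 193 HOXB counts were read per library.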
